A study of Homo sapiens with 9 samples.

Results

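The 10 genes examined here were FOS, FOSB, FOSL1, FOSL2, JUN, JUNB, JUND, EGR1, IER3 and MYC. They were chosen by name as subunits of the transcription factor AP-1 and as immediate early genes, and were found by Ensembl identifier among the 63187 genes of the count table. All 10 had at least 10 counts in at least 3 libraries and were among the 16030 genes tested. BEAS-2B, an immortalized line of human bronchial epithelial cells cultured in medium with fetal bovine serum, was exposed for 24 h to a dilution, at 2% by volume, of the aerosol condensate of a carrier liquid of propylene glycol and vegetable glycerine (PG/VG) or of an e-cigarette liquid with Virginia tobacco flavor and nicotine at 18 mg/ml (EC). Untreated cells of the same line were the control. Each condition had 3 libraries of poly(A) RNA, numbered 2, 3 and 4, and the labels use that number as the batch, so every batch holds 1 library of each condition. The study calls the 3 libraries biological replicates, and all of them come from 1 cell line.

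AP-1 is a dimer of a JUN protein with a FOS protein or of a pair of JUN proteins, and it binds short promoter and enhancer elements. In most cells FOS, FOSB, EGR1, JUN, JUNB, IER3 and MYC are transcribed within minutes of serum, growth factor or stress signals carried by MAP kinases, and their transcripts decay quickly, while FOSL1 and FOSL2 are transcribed later and JUND is more constant. In airway epithelium AP-1 takes part in the responses to smoke, oxidants and injury. The measurements were made after a whole day of exposure, so they describe a late level and not the early pulse.

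JUNB rose and JUN and MYC fell after EC, JUN fell after PG/VG, and IER3 was higher in EC than in PG/VG. The other FOS, JUN and EGR1 comparisons did not pass in the reported fit across all 9 libraries. Some of them passed in alternative settings, given with each member below. A gene was called when its adjusted p in the edgeR quasi-likelihood test was under 0.05 after Benjamini-Hochberg adjustment over the 16030 genes tested. With this rule 3 of the 10 members were called in EC vs. control, where 13.5% of all genes tested were called, 8.07% higher and 5.38% lower. For PG/VG vs. control 1 of 10 was called, against 4.54% of all genes, 2.63% higher and 1.90% lower. In EC vs. PG/VG 1 of 10 was called, against 0.855% of all genes, 0.555% higher and 0.299% lower. The median log2 fold change (LFC) of the members was 0.02 for EC and −0.08 for PG/VG against the control, beside 0.01 for both over all genes tested. Between EC and PG/VG it was 0.10, beside 0.00 over all genes tested. Both comparisons with the control use the same 3 control libraries.

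The libraries held 16168260 to 24917838 counts on genes, with at most 17882770 in the control and at least 18427225 in PG/VG and 19318218 in EC. The control libraries were thus the shallowest, and the part of depth in the results was not tested. The 3 libraries of batch 4 stood apart from the other 6 on the first principal component, which held 46.6% of the variance, and the member results and list counts are given with and without them. The epithelial cell label was checked against 12 epithelial markers, of which 10 could be tested. KRT7, KRT8 and KRT18 were abundant, at 387 to 1040, 751 to 1170 and 301 to 627 CPM (counts scaled to a common library size by TMM), while CDH1 and EPCAM were at most 1.58 and 1.93 CPM. KRT5 and KRT14, which could not be tested, were at most 0.0562 and 0.0857 CPM. Of 11 mesenchymal markers 6 could be tested, and FN1 lay at 2360 to 5540 and VIM at 821 to 1110 CPM. The untested COL1A2, COL3A1, PDGFRA, LUM and DCN were at most 0.396, 0.557, 0.436, 0.674 and 0.0793 CPM. FN1 alone, with means of 4790, 4430 and 3220 CPM in control, PG/VG and EC, made up most of the mesenchymal sum that follows. The summed epithelial markers were at 2120 to 3400 CPM in the control, 2100 to 3280 in PG/VG and 1840 to 2860 in EC, and the summed mesenchymal markers at 5150 to 7150, 4740 to 6840 and 3650 to 5570 CPM. The 6 immune markers summed to 3.26 to 5.33, 5.65 to 7.65 and 3.37 to 9.05 CPM with CD3E at 0 in every library, and the 4 endothelial markers to 5.39 to 9.67, 4.83 to 7.79 and 4.40 to 6.59 CPM. For EC vs. control, 2 epithelial markers were called higher and 3 lower, and 1 mesenchymal marker higher and 3 lower, and for PG/VG vs. control these were 0 and 0 (4 at an unadjusted p under 0.05 by edgeR, and 0 called by DESeq2) and 2 and 2. Between EC and PG/VG, KRT17 was higher in EC (LFC 0.59, adjusted p = 0.00128), and KRT7 (−0.32, adjusted p = 0.032) and FN1 (−0.47, adjusted p = 0.00694) were lower, and no other marker was called. Without batch 4, 3 epithelial and 2 mesenchymal markers were called for EC vs. control, all lower. The 1 immune and the 2 endothelial markers that could be tested were not called in any comparison by edgeR or DESeq2 over all 9 libraries. The immune marker had an unadjusted p under 0.05 in edgeR for both condensates against the control and was called higher for EC vs. control without batch 4, and 1 endothelial marker had such a p for EC vs. control. The part of the markers in the results was not tested. Fewer cells that express a gene and less RNA per cell cannot be told apart in these libraries.

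Because the members differ in length, their levels were compared as CPM per kb of exon, counting every base in an exon of any annotated transcript. This length can exceed that of the transcripts present, which lowers the level by an amount that was not tested. Reads on exon shared with other genes, 38.9% of IER3 and 14.2% of JUNB, may also have been left out of the counts. In the control the order from highest to lowest was FOSL1 (94.5 ± 37.6 CPM per kb, SD, n = 3), JUN (69.3 ± 2.9), IER3 (46.0 ± 18.2), JUND (39.0 ± 6.3), FOSL2 (27.5 ± 2.7), MYC (21.0 ± 4.9), EGR1 (16.7 ± 9.8), JUNB (8.85 ± 0.86), FOS (0.563 ± 0.177) and FOSB (0.171 ± 0.077). The control ranges overlapped between FOSL1 and JUN, JUN and IER3, IER3 and JUND, MYC and EGR1, and EGR1 and JUNB. Such an overlap does not compare the genes within each library, and that difference was not tested. FOS and FOSB, the classic early FOS proteins with strong activation domains, had only 20 to 55 and 9 to 56 counts per library. FOSL1 and FOSL2, the later FOS proteins that lack such a domain, made up 75.6% ± 7.4 and 23.8% ± 7.4 of the FOS family level per kb in the control, and FOS and FOSB 0.464% ± 0.106 and 0.138% ± 0.038.

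The promoters of JUN, JUNB and EGR1 are shown because JUN and JUNB moved in opposite directions and EGR1 was the most variable member. RefSeq promoters on GRCh38.p14 were found for 7 of the 10 members, FOS, FOSB, FOSL2, JUN, JUNB, JUND and EGR1. The sequences are the 160 bases before the RefSeq start, 5′ to 3′ on the strand of the gene, at chr1:58784048-58784207 (− strand) for JUN, chr19:12791326-12791485 (+ strand) for JUNB and chr5:138465319-138465478 (+ strand) for EGR1. Capitals mark the only matches to the 7 motifs searched: the CRE-like element in JUN, the TATA box in JUNB and a pair of CArG boxes, the element bound by SRF, in EGR1.
JUN: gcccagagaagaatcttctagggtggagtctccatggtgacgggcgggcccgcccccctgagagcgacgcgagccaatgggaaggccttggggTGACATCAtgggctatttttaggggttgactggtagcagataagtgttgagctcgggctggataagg
JUNB: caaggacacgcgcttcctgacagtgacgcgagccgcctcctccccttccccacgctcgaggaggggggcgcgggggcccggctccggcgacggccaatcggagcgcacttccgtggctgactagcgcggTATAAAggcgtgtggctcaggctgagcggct
EGR1: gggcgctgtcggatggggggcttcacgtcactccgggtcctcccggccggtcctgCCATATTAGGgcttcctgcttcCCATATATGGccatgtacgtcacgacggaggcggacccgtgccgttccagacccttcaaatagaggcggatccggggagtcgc

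The motifs were searched on both strands in the 250 bases before the start of 27305 promoters. The CRE-like element TGACATCA, known in the JUN promoter, was held by 2.45% of all promoters and, among the members, by JUN at 67 to 60 bases before its start. TATAAA was held by 11.1% of promoters and by FOS, FOSB and JUNB, and the match in JUNB lay 31 to 26 bases before the start. The CRE TGACGTCA was held by 1.77% of promoters and by JUND, 200 to 193 bases before the start. CArG boxes were held by 1.14% of promoters and by EGR1, at 105 to 96 and 83 to 74 bases before its start. The AP-1 element TGAGTCA (4.16% of promoters), the E-box CACGTG (6.49%) and the EGR elements GCGGGGGCG or GCGTGGGCG (5.30%) matched none of the 7 members searched. FOSL1, IER3 and MYC had no promoter to search. A match is a run of letters and does not show binding.

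JUN (ENSG00000177606, GRCh38 chromosome 1, 58776845 to 58784048, − strand), the JUN family member that activates most strongly, was at 242, 249.1 and 263 CPM in control batches 2, 3 and 4. In PG/VG it was at 216, 200.3 and 206 CPM, and in EC at 201, 202 and 227 CPM. All 6 exposed libraries lay below all 3 controls, and the exposed groups overlapped each other. JUN fell in EC vs. control with an LFC of −0.26 ± 0.07 (SE; adjusted p = 0.0133), lower in 3 of 3 batches. After PG/VG it fell with an LFC of −0.28 ± 0.07 (adjusted p = 0.0198), again in 3 of 3 batches. Between EC and PG/VG the LFC was 0.02 ± 0.07 (adjusted p = 0.948). Without batch 4, JUN still passed in EC vs. control (LFC −0.30, adjusted p = 0.0267) and no longer in PG/VG vs. control (LFC −0.26, adjusted p = 0.0913). In EC vs. control JUN passed in 7 of 9 alternative settings. It was lost with library-size scaling (LFC −0.20, edgeR adjusted p = 0.0504) and without the replicate block (−0.26, edgeR adjusted p = 0.282).

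JUNB (ENSG00000171223, chromosome 19, 12791486 to 12793315, + strand), which forms weaker dimers than JUN and can limit its activity, was at 16.2, 17.8 and 14.6 CPM in the control, at 23.1, 20.1 and 18.1 CPM in PG/VG and at 23.1, 23.4 and 23.7 CPM in EC. The EC libraries lay within 1 CPM of each other and above all PG/VG and control libraries, and the PG/VG libraries lay above all controls. JUNB rose by an LFC of 0.53 ± 0.10 in EC vs. control (adjusted p = 0.00116; higher in 3 of 3 batches), 1.45-fold. Against the control the LFC in PG/VG was 0.34 ± 0.10 (adjusted p = 0.0626) and in EC vs. PG/VG 0.20 ± 0.10 (adjusted p = 0.402), neither past the threshold. JUNB did pass in PG/VG vs. control in 4 of 9 alternative settings, among them ComBat-Seq with DESeq2 (adjusted p = 0.0215). It passed there in 0 of 9 fits with 1 library left out. Without batch 4 the rise in EC was 0.44 (adjusted p = 0.0326). Of the JUNB exon length 14.2% overlaps HOOK2 on the opposite strand, and the strand setting of the counting is not given in the sources used here. HOOK2 had 222 to 475 counts per library, with an LFC of 0.23 in EC vs. control (adjusted p = 0.206).

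JUND (ENSG00000130522, chromosome 19, 18279694 to 18281622, − strand), the most constant JUN family gene in many cells, was at 75.7, 87.1 and 62.8 CPM in the control, 84.9, 80.9 and 65.3 CPM in PG/VG and 88.7, 84.9 and 80.2 CPM in EC. The groups overlapped. The LFC was 0.18 ± 0.08 in EC vs. control (adjusted p = 0.142) and 0.04 ± 0.08 in PG/VG vs. control (adjusted p = 0.846). JUND passed in EC vs. control in 1 of 9 alternative settings, edgeR with library-size scaling (adjusted p = 0.0434). As a share of the JUN family per kb of exon, JUNB made up 7.55% ± 0.41 in the control, 10.3% ± 0.5 in PG/VG and 11.2% ± 0.2 in EC (SD, n = 3). JUN made up 59.3% ± 4.4, 52.9% ± 3.0 and 50.5% ± 2.6. The log2 ratio of JUNB to JUN in CPM was −3.90, −3.81 and −4.17 in the control, −3.23, −3.32 and −3.50 in PG/VG and −3.12, −3.11 and −3.26 in EC. The 3 controls had the lowest ratios of the 9 libraries, which follows from the JUN and JUNB values above and is no separate observation. The plot of family shares shows the JUNB part larger in each exposed library than in each control.

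**Figure D1:**
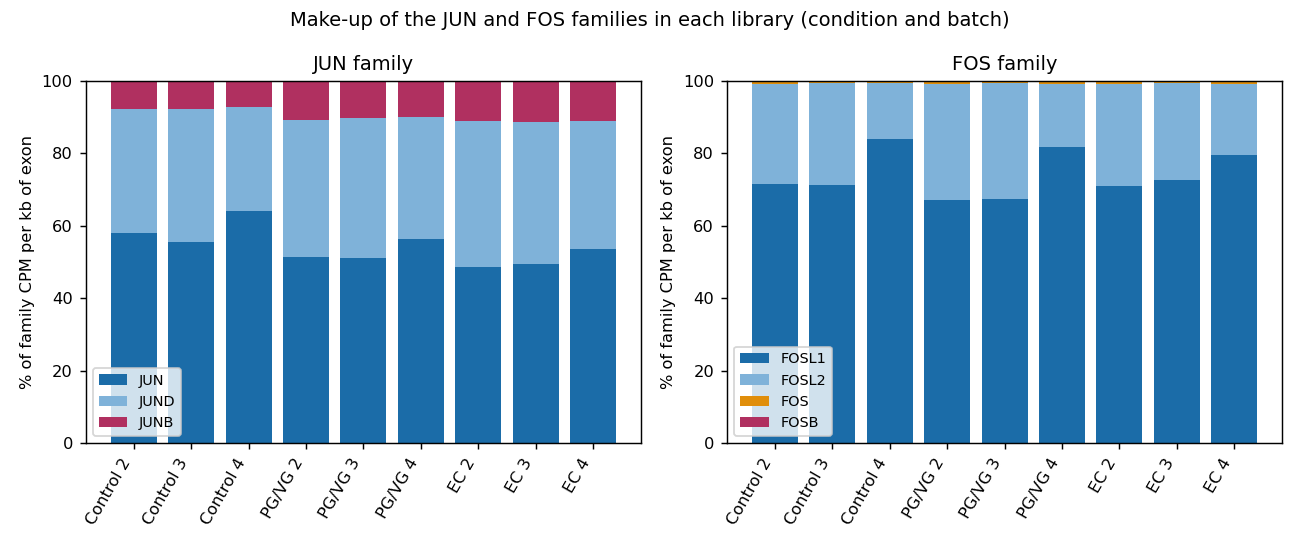
Stacked bars give the share (%) of each member in the summed CPM per kb of exon of the JUN family (left) and of the FOS family (right), 1 bar per library named by condition and batch. JUNB takes 7.08% to 7.86% of the JUN family in the control libraries, 9.87% to 10.8% in PG/VG and 11.1% to 11.4% in EC, while FOS and FOSB are barely visible in the FOS family.

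FOS (ENSG00000170345, chromosome 14, 75278826 to 75282230, + strand), the founding FOS protein, was at 1.78, 1.24 and 2.36 CPM in the control, 1.48, 1.15 and 2.36 CPM in PG/VG and 1.43, 1.11 and 2.38 CPM in EC. The 3 groups covered almost the same range, and within every group batch 3 was lowest and batch 4 highest. The LFC was −0.14 ± 0.25 in EC vs. control (adjusted p = 0.765) and −0.12 ± 0.25 in PG/VG vs. control (adjusted p = 0.843). With 20 to 55 counts per library and an SE of this size, a change as small as that of JUN was not detectable.

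FOSB (ENSG00000125740, chromosome 19, 45467995 to 45475179, + strand), a FOS protein known for its late and stable splice form, was at 0.889, 0.557 and 1.41 CPM in the control, 1.02, 0.821 and 2.32 CPM in PG/VG and 1.11, 0.894 and 2.78 CPM in EC. In each batch the order was control, PG/VG and EC from lowest to highest, but the groups overlapped across batches. The LFC of 0.71 ± 0.30 in EC vs. control did not pass the threshold (adjusted p = 0.122), nor did 0.52 ± 0.30 in PG/VG vs. control (adjusted p = 0.344). FOSB had 9 to 56 counts per library.

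FOSL1 (ENSG00000175592, chromosome 11, 65892049 to 65900573, − strand), the FOS protein FRA-1 that is often high in proliferating and migrating epithelial cells, was at 131, 144 and 259.9 CPM in the control, 115, 113 and 226 CPM in PG/VG and 116, 137 and 207 CPM in EC. The value was below the control of the same batch in all 6 exposed libraries, the 3 libraries of batch 4 were the highest of the 9, and the groups overlapped. The LFC was −0.19 ± 0.07 in EC vs. control (adjusted p = 0.101) and −0.24 ± 0.07 in PG/VG vs. control (adjusted p = 0.065). FOSL1 did pass in PG/VG vs. control in 3 of 9 alternative settings, among them DESeq2 (adjusted p = 0.0438) and ComBat-Seq with DESeq2 (adjusted p = 0.00361). In EC vs. control it passed in 1 of 9, ComBat-Seq with DESeq2 (adjusted p = 0.0295). With 1 library left out it passed in 2 of 9 fits for PG/VG and 1 of 9 for EC. FOSL2 (ENSG00000075426, chromosome 2, 28392448 to 28417317, + strand), the FOS protein FRA-2, was at 194, 217 and 179 CPM in the control, 209.6, 204 and 184 CPM in PG/VG and 176, 192 and 193 CPM in EC. Its groups overlapped and its LFC was −0.07 ± 0.07 in EC vs. control (adjusted p = 0.594).

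**Figure D2:**
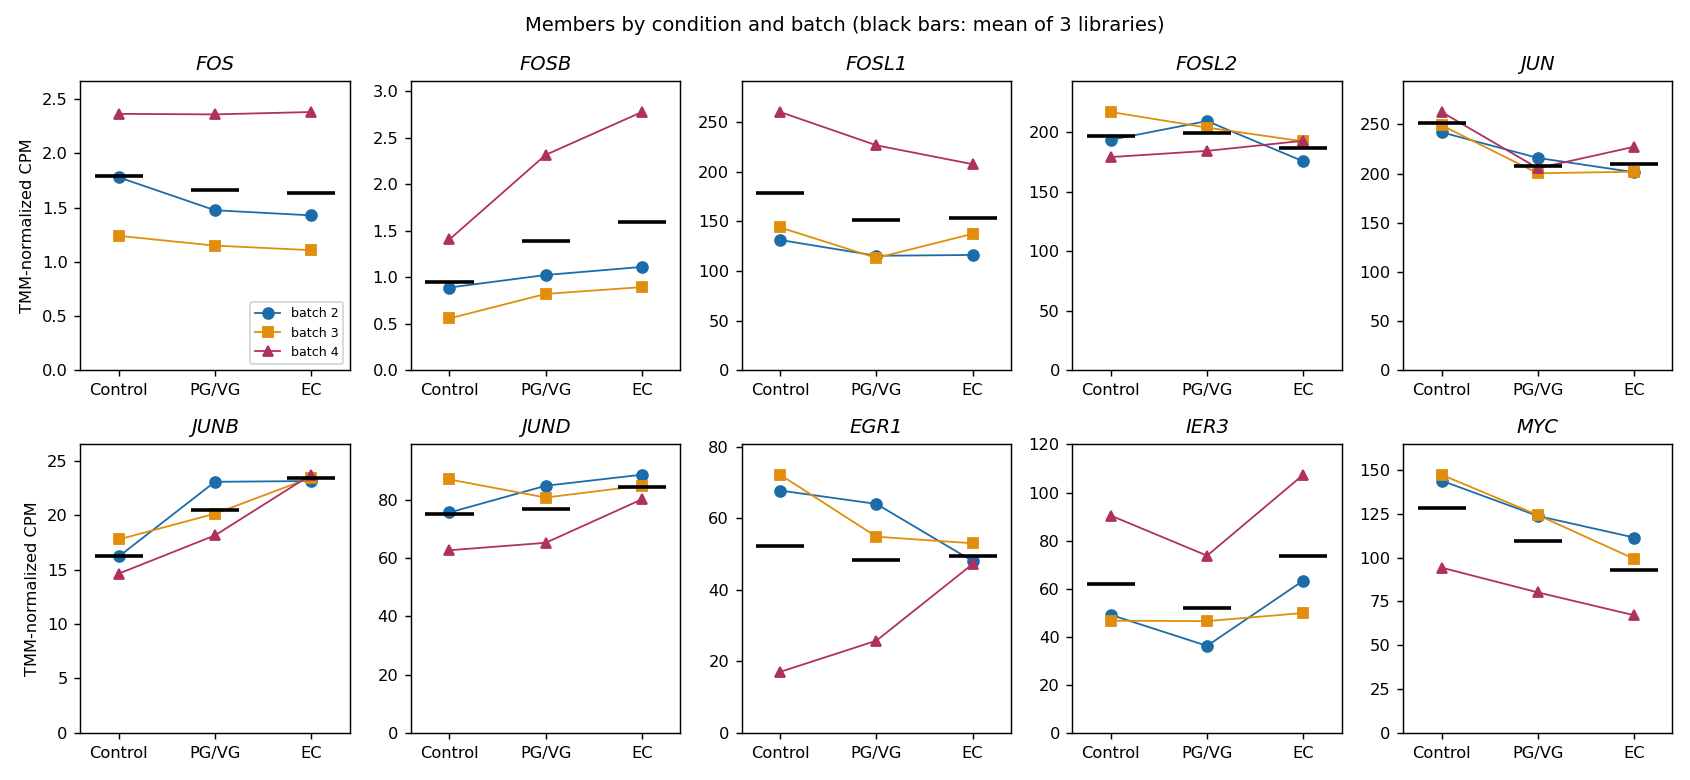
Each panel gives the TMM-normalized CPM of 1 member (linear axis from 0) in the 3 conditions, with points joined within a batch and a black bar at the mean of 3 libraries. JUN lies below the control and JUNB above it in each exposed library, MYC declines from control to PG/VG to EC in all 3 batches, and EGR1 in batch 4 runs from 17.1 CPM in the control to 47.2 CPM in EC.

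MYC (ENSG00000136997, chromosome 8, 127735434 to 127742951, + strand), a transcription factor that drives ribosome production and growth, was at 144, 147 and 94.2 CPM in the control, 124, 124 and 80.1 CPM in PG/VG and 111.4, 99.3 and 67.1 CPM in EC. In each batch the control was highest and EC lowest, and the groups overlapped over all 9 libraries but not within batches 2 and 3, the 3 libraries of batch 4 being low. MYC fell in EC vs. control with an LFC of −0.47 ± 0.07 (adjusted p = 9.36e-05; lower in 3 of 3 batches), 0.720 of the control level. The LFC was −0.23 ± 0.07 in PG/VG vs. control (adjusted p = 0.0565) and −0.24 ± 0.07 in EC vs. PG/VG (adjusted p = 0.11), neither past the threshold, with 3 of 3 batches lower in each. MYC did pass in PG/VG vs. control in 5 of 9 alternative settings, among them DESeq2 (adjusted p = 0.0283) and ComBat-Seq with DESeq2 (adjusted p = 0.000935), and in EC vs. PG/VG in 1 of 9, ComBat-Seq with DESeq2 (adjusted p = 0.00157). Without batch 4 the fall in EC was −0.48 (adjusted p = 0.00339). MAX, the obligate partner of MYC, was at 57.0 ± 4.9, 58.2 ± 4.8 and 57.5 ± 5.3 CPM in control, PG/VG and EC, with an LFC of 0.01 in EC vs. control (adjusted p = 0.937). The log2 ratio of MYC to MAX was 1.15 ± 0.48 in the control, 0.88 ± 0.48 in PG/VG and 0.66 ± 0.49 in EC, where the SD includes the spread between batches. In batches 2, 3 and 4 it was 1.37, 1.48 and 0.595 in the control, 1.13, 1.18 and 0.332 in PG/VG, and 0.962, 0.921 and 0.0925 in EC. Within each batch the control ratio was highest and the EC ratio lowest. Of the MYC exon length 3.18% overlaps CASC11 on the opposite strand, which had 0 to 5 counts.

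IER3 (ENSG00000137331, chromosome 6, 30743199 to 30744548, − strand), an early gene that modulates survival and ERK signalling, was at 49.1, 46.7 and 90.4 CPM in the control, 36.2, 46.5 and 73.7 CPM in PG/VG and 63.3, 49.9 and 107 CPM in EC. EC was above the control of its batch and PG/VG below it in all 3 batches, with a log2 difference of only −0.0059 for PG/VG in batch 3, while the groups overlapped and the 3 libraries of batch 4 were the highest. IER3 was higher in EC than in PG/VG by an LFC of 0.49 ± 0.10 (adjusted p = 0.014; 3 of 3 batches), with 0.81, 0.10 and 0.54 in batches 2, 3 and 4. The LFC against the control was 0.24 ± 0.10 for EC (adjusted p = 0.0998) and −0.24 ± 0.10 for PG/VG (adjusted p = 0.158). These passed in 3 of 9 alternative settings for EC and 1 of 9 for PG/VG. Without batch 4 the difference between EC and PG/VG was 0.46 and did not pass (adjusted p = 0.234). Of the IER3 exon length 38.9% overlaps HCG20 and IER3-AS1 on the opposite strand, which had 1 to 12 and 0 to 1 counts per library.

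EGR1 (ENSG00000120738, chromosome 5, 138465479 to 138469303, + strand), a zinc finger factor induced through SRF and MAP kinases, was at 67.7, 72.1 and 17.1 CPM in the control, 64.0, 54.8 and 25.8 CPM in PG/VG and 48.0, 53.0 and 47.2 CPM in EC. In batches 2 and 3 EC was the lowest condition, and in batch 4 it was the highest. The within-batch difference between EC and control was −0.49, −0.44 and 1.46 on the log2 scale in batches 2, 3 and 4. The biological coefficient of variation was 36.6% for EGR1 and 6.21% to 13.1% for the other 9 members. Over all 9 libraries the LFC was 0.11 ± 0.44 (adjusted p = 0.912). Without batch 4 the LFC was −0.48 (adjusted p = 0.00871), and 4 members, JUN, JUNB, MYC and EGR1, were then called in EC vs. control, where 7.85% of all genes tested were called in that fit, 4.42% higher and 3.43% lower. The same fit called 0 members in the other comparisons (5 at an unadjusted p under 0.05 with PG/VG against the control and 4 between EC and PG/VG, by edgeR), against 2.09% and 0.517% of all genes tested.

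**Figure D3:**
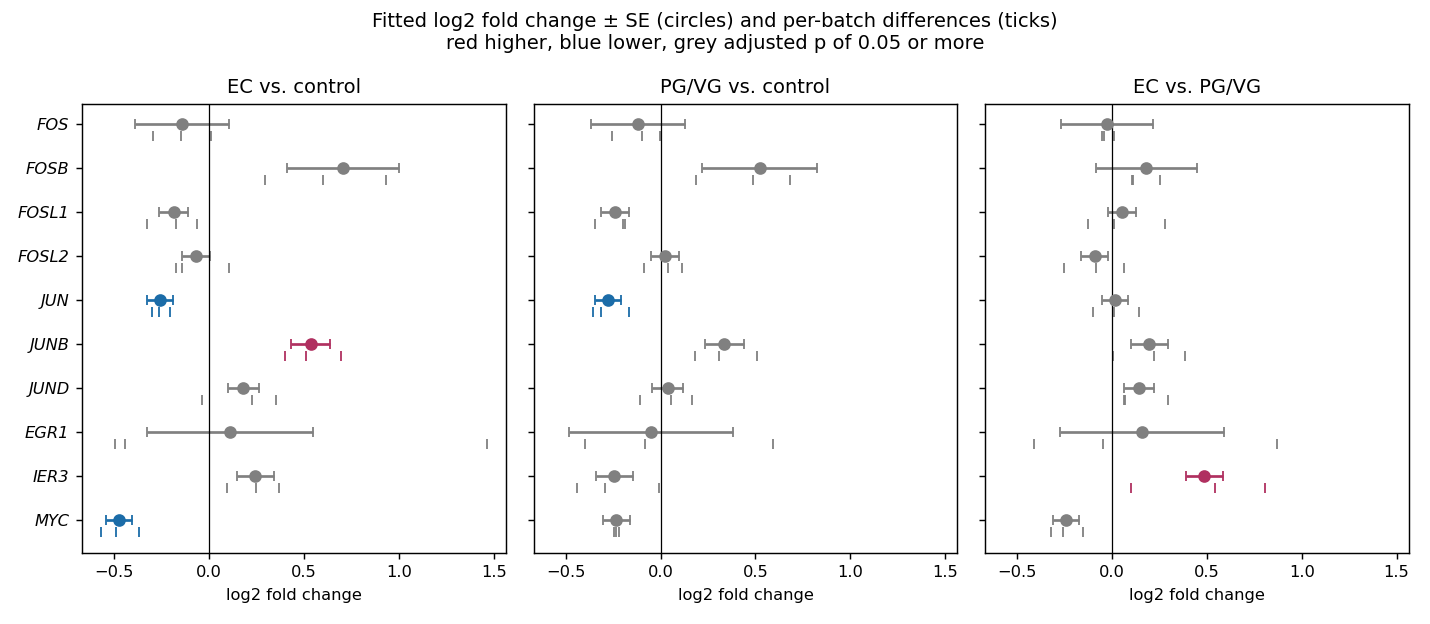
Circles give the fitted log2 fold change of each member with its SE, and ticks the differences within batches 2, 3 and 4, in a panel for each of the 3 comparisons. JUNB (0.53) is the only member called higher and JUN (−0.26) and MYC (−0.47) the members called lower in EC vs. control, and the 3 EGR1 ticks in that panel lie on both sides of 0.

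By libraries, 2 members had groups that did not overlap in EC vs. control (JUN and JUNB), where 17.3% of all genes tested had such groups. With PG/VG they were again JUN and JUNB, against 14.2% of all genes, and in EC vs. PG/VG JUNB alone, against 7.91%. At an unadjusted p under 0.05 there were 7 members in EC vs. control, 5 in PG/VG vs. control and 2 in EC vs. PG/VG, against 27.4%, 20.1% and 12.9% of all genes tested.

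Several members also differed between batches. The batch term was past the threshold for 6 of the 10 members, FOS, FOSB, FOSL1, JUND, IER3 and MYC, and for 34.3% of all genes tested. All 3 batch 4 libraries lay above all 6 others for FOS, FOSB, FOSL1 and IER3, and below them for EGR1 and MYC. The share of all genes tested with batch 4 apart in this way was not counted. FOSL1 had a mean of 231 CPM in batch 4, 121 in batch 2 and 131 in batch 3. IER3 had a mean of 90.5, 49.6 and 47.7 CPM in the same order, and MYC 80.5, 126 and 124 CPM. For EGR1 the batch term did not pass (adjusted p = 0.252), although its mean was 30.0 CPM in batch 4 against 59.9 and 59.98 in batches 2 and 3. JUN, JUNB and FOSL2 did not pass either (adjusted p = 0.506, 0.432 and 0.315). The labels call the number a batch and say no more of it.

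**Figure D4:**
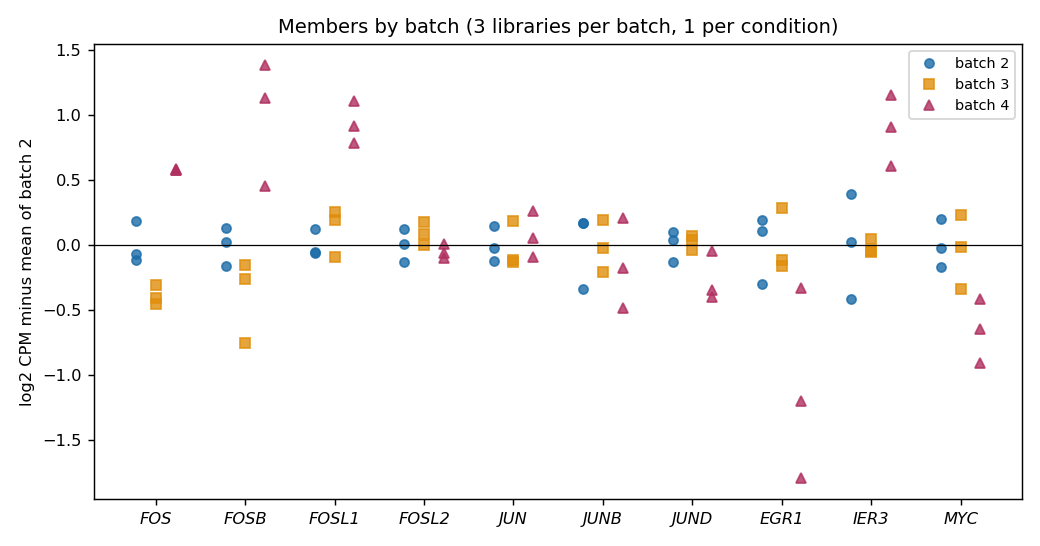
Each point is the log2 CPM of 1 library minus the mean of the 3 batch 2 libraries for that member, with batches 2, 3 and 4 side by side. Batch 4 lies above the other batches for FOS, FOSB, FOSL1 and IER3 and below them for EGR1 and MYC.

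The genes around the members were taken from 7 lists, other AP-1 partners, other immediate early genes, MAP kinase and SRF inputs, feedback inhibitors, AP-1 targets, the MYC network and MYC targets, with 169 genes in all and 159 tested. In EC vs. control 33 of them were called (20.8% of those tested, against 13.5% of all genes), 13 higher and 20 lower, while over all genes 8.07% were higher and 5.38% lower. With PG/VG 10 were called (6.29%, against 4.54% of all genes), 1 higher and 9 lower, and in EC vs. PG/VG 2 (1.26%, against 0.855%), both higher. Without batch 4 these were 27 (6 higher, 21 lower), 9 (all lower) and 3. The median LFC of the 159 was −0.04 in both comparisons with the control.

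Of the inputs, MAP kinase and SRF genes that switch immediate early genes on, 0 of 30 were called higher and 2 lower in EC vs. control by edgeR and by DESeq2 (2 higher at an unadjusted p under 0.05 in edgeR). Among them was ELK3, an ETS factor that works with SRF (LFC −0.22 ± 0.07, adjusted p = 0.0467). ELK3 was also lower in PG/VG vs. control (LFC −0.25, adjusted p = 0.0427), the 1 input called there. The ELK3 call for EC passed in only 2 of 9 fits with 1 library left out (those without PG/VG replicate 3 or 4) and not without batch 4 (adjusted p = 0.109), and the one for PG/VG passed in 4 of 9 and without batch 4. Without batch 4, 1 input was called lower and 0 higher in EC vs. control. The 30 inputs had a median LFC of −0.03 for EC and 0.03 for PG/VG, each against the control. Among other AP-1 partners, edgeR called 1 of 12 tested after EC and 0 after PG/VG (2 at an unadjusted p under 0.05). It was BATF3, a bZIP partner of JUN (LFC 0.53 ± 0.18, adjusted p = 0.0483), and DESeq2 called 0 of the 12 for either condensate. The BATF3 call was lost whichever library was left out (adjusted p 0.0526 to 0.345) and without batch 4 (0.0989), where 1 other partner was called lower. ATF3, a stress-induced bZIP factor, was at 38.5 ± 9.2, 45.4 ± 3.5 and 46.9 ± 12.8 CPM in control, PG/VG and EC, with an LFC of 0.29 ± 0.29 in EC vs. control (adjusted p = 0.609). These partners had a median LFC of −0.01 with EC and 0.03 with PG/VG.

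Of 31 other immediate early genes tested, 5 rose and 4 fell in EC vs. control, and the list median was −0.05. BHLHE40, a repressor of the circadian and hypoxia programs, rose from 31.3 ± 23.7 to 56.2 ± 49.8 CPM, with an LFC of 0.77 ± 0.09 in EC (adjusted p = 7.97e-06) and 0.45 ± 0.09 in PG/VG (adjusted p = 0.00618). BTG2, an antiproliferative p53 target, rose with an LFC of 0.62 ± 0.12 in EC (adjusted p = 0.00454). The remaining rises in EC, named after their values were seen, were in NR4A3 (LFC 1.51, adjusted p = 0.00879), ARC (1.11, adjusted p = 0.0102) and NR4A2 (1.04, adjusted p = 0.0376), all with group means of at most 2.54 CPM. The 4 that fell were KLF6, a zinc finger factor (LFC −0.33 ± 0.07, adjusted p = 0.00276), and ERRFI1, an inhibitor of the EGF receptor (−0.34 ± 0.08, adjusted p = 0.00538), with SGK1 (−0.35, adjusted p = 0.0278) and KLF2 (−0.27, adjusted p = 0.0426), both named after their values were seen. After PG/VG, BHLHE40 was the 1 rise and KLF2 (−0.37, adjusted p = 0.0175) the 1 fall, with a list median of −0.05. Without batch 4 the balance turned to 1 higher, BHLHE40 (LFC 0.63, adjusted p = 0.00365), and 7 lower in EC vs. control, and to 0 higher (2 at an unadjusted p under 0.05 by edgeR) and 1 lower in PG/VG vs. control. BTG2 was then at 0.36 (adjusted p = 0.0714), and its call was also lost without EC replicate 2 (up to 0.0502), that of ERRFI1 without control replicate 2 (up to 0.0527) and that of BHLHE40 in PG/VG without control replicate 4 (up to 0.0602). EGR2, a relative of EGR1, had an LFC of 1.02 ± 0.49 in EC vs. control (adjusted p = 0.18) at 0.311 and 0.622 CPM, and IER2 one of −0.13 ± 0.08 (adjusted p = 0.362).

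Among 23 feedback inhibitors tested, the phosphatases and RNA-decay factors that end the response, 1 rose and 1 fell in EC vs. control. ZFP36L2, which promotes decay of AU-rich transcripts, rose (LFC 0.27 ± 0.08, adjusted p = 0.034) and ERRFI1 fell. The ZFP36L2 call was lost without control replicate 3 or 4, PG/VG replicate 4 or EC replicate 4, with LFCs down to 0.14, and without batch 4 (LFC 0.12, adjusted p = 0.419), where 0 feedback inhibitors were higher (2 at an unadjusted p under 0.05 by edgeR) and 3 lower. After PG/VG, DUSP4, an ERK phosphatase, fell (LFC −0.35 ± 0.07, adjusted p = 0.00515) and in EC vs. control its LFC was −0.20 (adjusted p = 0.0578). DUSP1, a phosphatase for JNK and p38, was at 91.5 ± 7.5, 77.2 ± 1.9 and 80.0 ± 20 CPM in control, PG/VG and EC (LFC −0.21 in EC vs. control, adjusted p = 0.394). DUSP1 passed as lower in EC vs. control without EC replicate 4 (LFC −0.46, adjusted p = 0.00318) and without batch 4 (−0.49, adjusted p = 0.0035). The list medians were 0.00 (EC) and −0.04 (PG/VG).

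Of 23 AP-1 target genes tested, 5 rose and 4 fell in EC vs. control and 2 fell in PG/VG vs. control, where 0 rose by edgeR (4 at an unadjusted p under 0.05; 1 called by DESeq2). LIF, a cytokine of the IL-6 family, rose in EC (LFC 0.57 ± 0.09, adjusted p = 0.000202). AXL, a receptor tyrosine kinase, fell from 1210 ± 34 to 900 ± 6 CPM (−0.43 ± 0.06, adjusted p = 0.000125). MMP1, a collagenase, fell in PG/VG vs. control (LFC −0.66 ± 0.09, adjusted p = 0.000351) and was higher in EC than in PG/VG (0.50 ± 0.09, adjusted p = 0.00691), while in EC vs. control its LFC was −0.15 (adjusted p = 0.277). The other target called in EC vs. PG/VG, named after its values were seen, was HMOX1, which degrades heme (0.55 ± 0.09, adjusted p = 0.00265). The list medians were 0.05 (EC) and −0.08 (PG/VG). Without batch 4, 3 targets were higher and 4 lower in EC vs. control, and the MMP1 difference between EC and PG/VG, lost without PG/VG replicate 2 or 4 or EC replicate 2 (adjusted p up to 0.0824), still passed (0.61, adjusted p = 0.00397).

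MYC targets gave 10 of 30 called lower and 0 higher in EC vs. control, where 5.38% of all genes tested were lower and 8.07% higher. In PG/VG vs. control 4 were lower and 0 higher, against 1.90% and 2.63% of all genes. The list medians were −0.18 and −0.13. By edgeR 1 and 0 of the 30 targets were higher at an unadjusted p under 0.05, and DESeq2 called 0 higher and 10 and 5 lower. The list holds genes that MYC is known to activate, among them genes of ribosome production and one-carbon metabolism. Not all of the list moved. MCM4 (LFC 0.003), MCM5 (−0.007), E2F1 (−0.04), ODC1 (0.07) and TFRC (0.15), named after their values were seen, were not called in EC vs. control. BOP1, a ribosome assembly factor, fell (LFC −0.48 ± 0.08, adjusted p = 0.00025), as did its partner PES1 (−0.35 ± 0.07, adjusted p = 0.00277). NPM1, a nucleolar chaperone, fell from a mean of 1370 to 1100 CPM (−0.32 ± 0.07, adjusted p = 0.00381), and SHMT2, a mitochondrial enzyme of serine metabolism, fell with −0.33 ± 0.07 (adjusted p = 0.00174). With PG/VG BOP1 (−0.31, adjusted p = 0.022), PES1 (−0.30, adjusted p = 0.0186) and NPM1 (−0.37, adjusted p = 0.00351) were also lower, and between EC and PG/VG 0 of the 30 were called by edgeR or DESeq2 (6 at an unadjusted p under 0.05 in edgeR). The MYC network list, MYC's relatives and cofactors, had 1 of 16 called in EC vs. control, MLXIPL, a glucose-responsive factor at 0.494 and 1.25 CPM (LFC 1.32 ± 0.39, adjusted p = 0.0264). DESeq2 called 0 of the 16, and the list medians were 0.01 and 0.06. The MLXIPL call was lost without control replicate 2 or 3 or EC replicate 2 or 3 (adjusted p up to 0.16). Without batch 4, 7 MYC targets were lower and 0 higher for EC, and 3 lower and 0 higher for PG/VG, where BOP1 (adjusted p = 0.188) and PES1 (0.128) were not called, and 2 genes of the MYC network were higher and 1 lower for EC. In PG/VG vs. control the BOP1 and PES1 calls were also lost without control replicate 3 or 4 or PG/VG replicate 2 or 4, and that of NPM1 without PG/VG replicate 2 (adjusted p up to 0.0592).

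**Figure D5:**
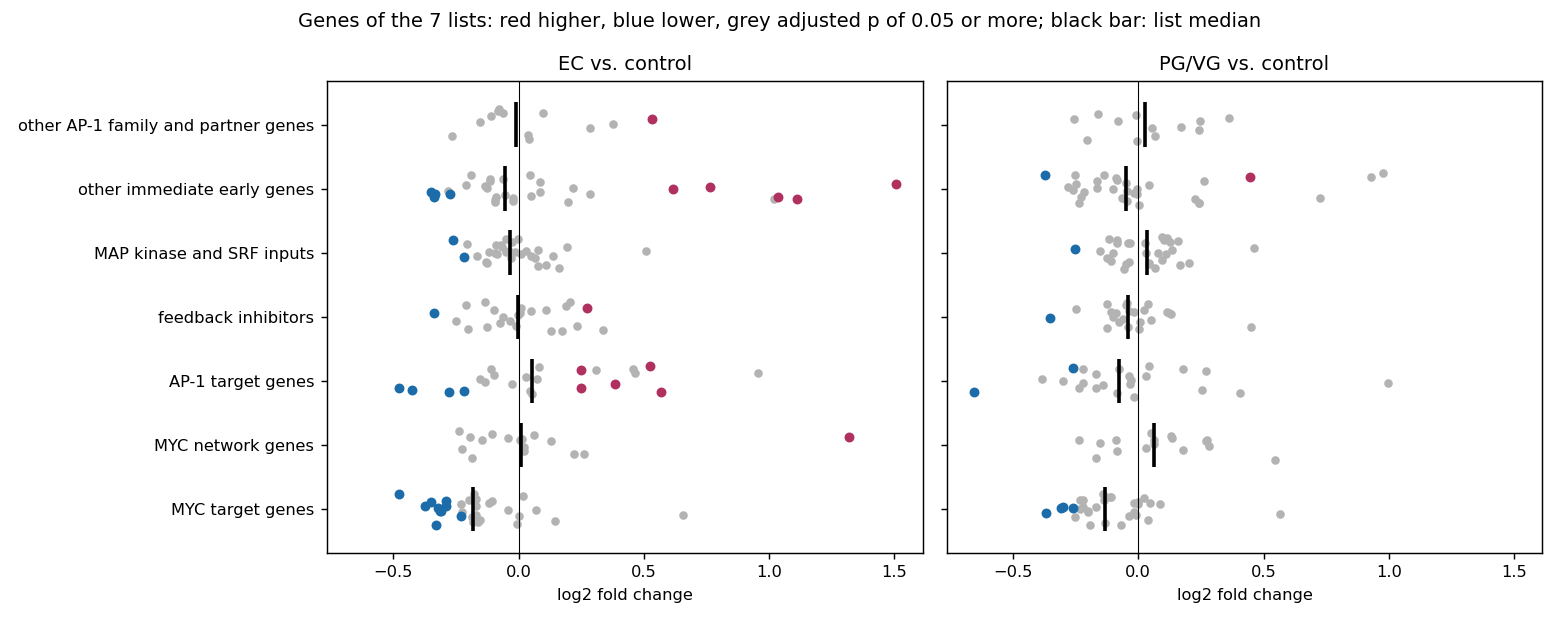
Points give the log2 fold change of every tested gene of the 7 lists against the control (EC left, PG/VG right), called genes in red (higher) or blue (lower), with a black bar at the list median. The MYC target list has 10 of 30 genes called lower and 0 higher in EC vs. control, where 5.38% of all genes tested were lower. NR4A3 at 1.51 is the rightmost called immediate early gene.

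Most alike in their pattern over the 9 libraries, by Pearson correlation of log2 CPM after removal of the batch mean, were LRRC8D-DT (r = 0.975), TIMM10B and ZNF8-ERVK3-1 (both 0.970) for JUN, and FIBCD1, LOXL1 and TRIM68 (all 0.988) for JUNB. For MYC they were GOSR2 (0.999), VRK1 (0.992) and EEF2 (0.992), and for IER3 MIEN1 (0.987), TUBA1A (0.968) and BAK1 (0.967). These values describe 9 libraries that share batches, and each gene was picked as the nearest of 16030. Between members, with the batch mean removed, the strongest correlations were −0.92 for MYC and JUNB, −0.89 for FOSB and MYC and 0.87 for JUNB and FOSB. Next came FOSB and JUN (−0.83), JUNB and JUND (0.82), FOSB and FOSL1 (−0.76) and JUN and MYC (0.76). The differences between conditions remain in these values, which thus partly restate them.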

How the data were processed

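Poly(A) RNA of 9 BEAS-2B cultures, 3 per condition, was sequenced by the authors, trimmed with fastp, aligned with STAR to GRCh38.p12 and counted on exons of an Ensembl annotation with featureCounts of Subread 2.0.4, which left out reads that mapped to several places or overlapped several genes. The strand setting is not given in the sources used here. As deposited, the table gives unnormalized counts of 63187 genes. The 16030 genes that reached 10 counts in 3 or more libraries entered edgeR 4.0.16 under R 4.3.3 (TMM, robust quasi-likelihood fit, condition and batch as terms), with Benjamini-Hochberg adjustment over all genes tested and a threshold of 0.05. SE was approximated from the LFC and its F value, and CPM uses TMM-scaled library sizes. The study's own route, ComBat-Seq followed by DESeq2, was an alternative.

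The labels give the same batch number to 1 library of each condition, and the study removed a batch effect before its tests, so batch was kept as a replicate block. Deviations from the condition mean correlated at 0.33 to 0.71 between libraries of the same number (9 pairs) and −0.54 to 0.43 otherwise (18 pairs). That contrast came from batch 4. Among libraries of batches 2 and 3, pairs of the same number lay at 0.33 to 0.40 and pairs of different numbers at 0.28 to 0.43. These correlations thus do not tell batch 2 from batch 3. Replicates were not duplicates (chi-square per gene of at least 3.66). In the reported fit, p-values weigh an effect against the spread between these libraries that is left after the condition and batch terms.

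The members, the 7 pathway lists and the 4 marker lists were chosen with earlier results of these data known. All members were named, with up to 4 called genes per pathway list by smallest adjusted p, with ATF3, DUSP1, EGR2, IER2 and MAX always, and with the 3 genes most correlated with each called member. Results for 2 genes under this rule are not reported here. Gene positions and exon lengths came from GENCODE matched by Ensembl identifier, promoters from RefSeq. The steps were tested on simulated data. Alternatives were no replicate block, RLE or library-size scaling, other filters, DESeq2 1.42.0, the 2 groups alone, ComBat-Seq of sva 3.50.0 and each library left out, and, added after seeing the data, batch 4 left out.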

Additional observations from a re-analysis of the deposited data

Results flagged for a closer look

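IER3 differed between the condensates in the reported fit. It lay above the control of its batch in all 3 EC libraries and below it in all 3 PG/VG libraries, by only −0.0059 (log2) for PG/VG in batch 3. The response to EC minus the response to PG/VG was 0.49 on the log2 scale (adjusted p = 0.014 in the direct edgeR comparison of EC with PG/VG). Against the control, neither response passed in that fit (edgeR adjusted p = 0.0998 for EC and 0.158 for PG/VG). The difference between EC and PG/VG ran in the same direction in 3 of 3 batches and passed in 5 of 9 fits with 1 library left out. It did not pass the threshold without batch 4 (LFC 0.46, adjusted p = 0.234), a setting chosen after seeing the data.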

How the results depend on the processing

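Without the replicate block, 0 members and 0 pathway genes were called in each of the 3 comparisons by edgeR (2, 2 and 0 members and 23, 11 and 9 pathway genes at an unadjusted p under 0.05), and the EGR1 LFC in EC vs. control was −0.081. In PG/VG vs. control, 1 member was called in the reported fit, 2 with RLE, library-size scaling, no filter or at least 10 counts in every library, 3 with DESeq2, 5 with the 2 groups alone, 4 with ComBat-Seq and 0 without batch 4 (5 at an unadjusted p under 0.05). In EC vs. PG/VG members called were 2 with ComBat-Seq and 0 without batch 4 (4 unadjusted). Against the control, ComBat-Seq called 51 pathway genes for EC and 33 for PG/VG, and the 2 groups alone 25 for PG/VG. In EC vs. PG/VG they were 4 with library-size scaling, 6 with no filter, 6 with the 2 groups alone and 17 with ComBat-Seq. Except without batch 4, the share of all genes called was not counted for these settings or for fits with 1 library left out. Whether the shifts only follow the number of all genes called was not tested.

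Leaving out each library in turn gave 2 to 4 members called in EC vs. control, 0 to 3 in PG/VG vs. control, 0 to 1 in EC vs. PG/VG and 5 to 7 for the batch term, and 16 to 32, 3 to 16 and 0 to 5 pathway genes. In EC vs. control JUNB (adjusted p at most 0.0214) and MYC (at most 0.00216) passed in 9 of 9 such fits and JUN in 7, lost without control replicate 3 or EC replicate 3. JUN in PG/VG vs. control passed in 5 of 9 (lost without control replicate 3 or 4, or PG/VG replicate 3 or 4; adjusted p up to 0.135), and IER3 in EC vs. PG/VG in 5 of 9 (lost without PG/VG replicate 2 or 4, or EC replicate 2 or 4; up to 0.222).

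Directions changed only in LFCs that had not passed the threshold in the reported fit. Of the values with a changed direction, only EGR1 in EC vs. control without batch 4 passed (edgeR adjusted p = 0.00871). Without batch 4, the LFC in EC vs. control was −0.48 for EGR1, −0.16 for ATF3 and −0.0025 for MAX, in EC vs. PG/VG −0.044 for JUN and −0.23 for EGR1, and in PG/VG vs. control −0.0034 for FOSL2. MAX in EC vs. control was −0.0004 with RLE and with DESeq2 and −0.0022 with ComBat-Seq, and FOS in EC vs. PG/VG was 0.0096 with library-size scaling. Over the fits without 1 library, LFCs in EC vs. control ran from −0.37 to 0.39 for EGR1, −0.089 to 0.47 for ATF3 and −0.014 to 0.029 for MAX. In PG/VG vs. control they ran from −0.40 to 0.21 for EGR1, −0.022 to 0.40 for ATF3, −0.044 to 0.066 for FOSL2, −0.017 to 0.12 for JUND and −0.0052 to 0.57 for EGR2. In EC vs. PG/VG they ran from −0.36 to 0.45 for EGR1, −0.034 to 0.13 for FOSL1, −0.091 to 0.026 for FOS and −0.032 to 0.078 for JUN. Apart from fits without 1 library, 486 other values kept direction and side of the threshold, 50 lost and 21 gained significance. The causes were not tested. FOS and FOSB had at most 56 counts per library.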
